A study of Mus musculus with 2 samples.

Results

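The cells described here are the Sst-rich neurons of day 9 cultures grown from MM13 mouse embryonic stem cells. They were selected on the unique molecular identifiers (UMIs, counted molecules) of 4 genes: at least 10 UMIs of Sst, none of Dmrt3, and fewer than 2 of Barhl1 and Barhl2 together. Barcodes were kept from 1000 genes upwards and up to 10% mitochondrial UMIs. Of the 14688 kept, 623 met the rule and are the members named in the plots, 202 of 8650 in the RA+BMP4 library and 421 of 6038 in the RA library. The RA+BMP4 culture had received retinoic acid (RA), which gives neural cells a caudal identity, and bone morphogenetic protein 4 (BMP4), a dorsal signal of the neural tube. The RA culture had received retinoic acid without BMP4. All cells came from 1 stem cell line, and each condition had 1 droplet library, so no replicate error exists, nothing was tested between conditions, and every value describes these 2 libraries. The files held 13121 barcodes and 115268932 UMIs for RA+BMP4, and 9704 barcodes and 122110565 UMIs for RA. Bracketed ranges are exact 95% intervals that cover counting error only.

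Somatostatin, the peptide encoded by Sst, acts through G protein-coupled receptors that mostly damp the firing and secretion of their target cells. In the adult mouse dorsal horn it is known chiefly from excitatory, glutamatergic interneurons, and inhibitory spinal neurons can also carry it. During development, dorsal inhibitory neurons are marked by the transcription factors Pax2, Lhx1 and Lhx5 and by Lbx1 in the more ventral dorsal classes, excitatory ones by Tlx3, Lmx1b and Prrxl1, and the dI2 class by Foxd3, Hmx2 and Hmx3.

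Sst lies at chr16:23889573-23890958 on the minus strand of GRCm38 in GENCODE, whose gene starts upstream of the RefSeq start site. Its promoter is shown because the gene is the one that defines these cells, beside that of Cartpt, a second peptide gene high in them. Both sequences are the 250 bases before the RefSeq start site on build GRCm38.p6, from chr16:23890845-23891094 and chr13:99900684-99900933, both on the minus strand. The GENCODE gene of Cartpt, at chr13:99898489-99901091, also starts upstream of its RefSeq start site. All of the Cartpt sequence and part of the Sst sequence thus lie inside the GENCODE genes. Capitals mark the cyclic AMP response element TGACGTCA, which reads the same on both strands and is the sequence through which CREB is known to drive Sst.
Sst: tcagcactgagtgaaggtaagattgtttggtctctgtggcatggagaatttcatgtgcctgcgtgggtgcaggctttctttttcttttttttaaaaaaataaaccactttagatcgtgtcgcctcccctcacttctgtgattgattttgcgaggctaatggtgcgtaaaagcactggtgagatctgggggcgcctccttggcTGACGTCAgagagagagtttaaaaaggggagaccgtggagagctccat
Cartpt: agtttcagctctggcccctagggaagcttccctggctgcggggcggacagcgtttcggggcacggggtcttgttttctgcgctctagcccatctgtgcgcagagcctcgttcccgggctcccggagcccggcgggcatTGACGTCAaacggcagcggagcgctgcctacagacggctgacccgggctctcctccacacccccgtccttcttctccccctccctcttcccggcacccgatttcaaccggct
The element ended 40 bases before the Sst start site and 104 bases before the Cartpt start site. In windows of 300 bases, from 250 before to 50 after the start site, it was found in 549 of 27025 genes with a RefSeq promoter (2.03%). Among 24 genes with such a window that were higher in the Sst-rich neurons than in other neurons of both libraries, it was found in 2, which were Cartpt and Sst, with Sst in that set because the rule selected on it. A match of these letters is a description and not a measured binding site.

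The Sst-rich neurons were a smaller share of the RA+BMP4 library. They made up 2.34% of its passing cells [2.03 to 2.68] and 6.97% of the RA library's [6.34 to 7.64], a ratio of 0.335 [0.282 to 0.397]. Set against neurons alone (cells with at least 3 UMIs of Elavl3 and Elavl4 together and 5 of Stmn2, plus the selected cells), the shares were 7.56% of 2673 cells [6.58 to 8.62] and 17.4% of 2426 cells [15.9 to 18.9]. That ratio was 0.435 [0.366 to 0.516]. The selected cells did not all meet the neuron rule, which 165 of 202 RA+BMP4 cells and 375 of 421 RA cells passed. Under a stricter filter (2000 genes or more, mitochondrial UMIs of 5% or less) the ratio of shares of passing cells was 0.416.

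Among the selected cells, which the rule chose on Sst itself, Sst had a median of 22 UMIs in RA+BMP4 cells (quartiles 14 and 36, highest 242) and 29 in RA cells (quartiles 16 and 55, highest 321). Summed, it reached 2567 CPM (UMIs of a gene scaled to a total of 1000000) in the RA+BMP4 cells and 3031 CPM in the RA cells. They held 67.5% and 76.3% of all Sst UMIs of the passing cells in their libraries. Sst was thus spread in low counts over many cells and high in few, with no gap at the threshold of 10. Mesenchymal cells with at least 20 UMIs of Col1a1 and Col1a2 and none of Elavl3 or Elavl4, which should lack Sst, showed the level of free RNA. Of these, 5 of 118 RA+BMP4 cells (4.24%) and 15 of 142 RA cells (10.6%) had Sst, never more than 2 UMIs, at median depths of 19650 and 27109.5 UMIs per cell.

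**Figure D1:**
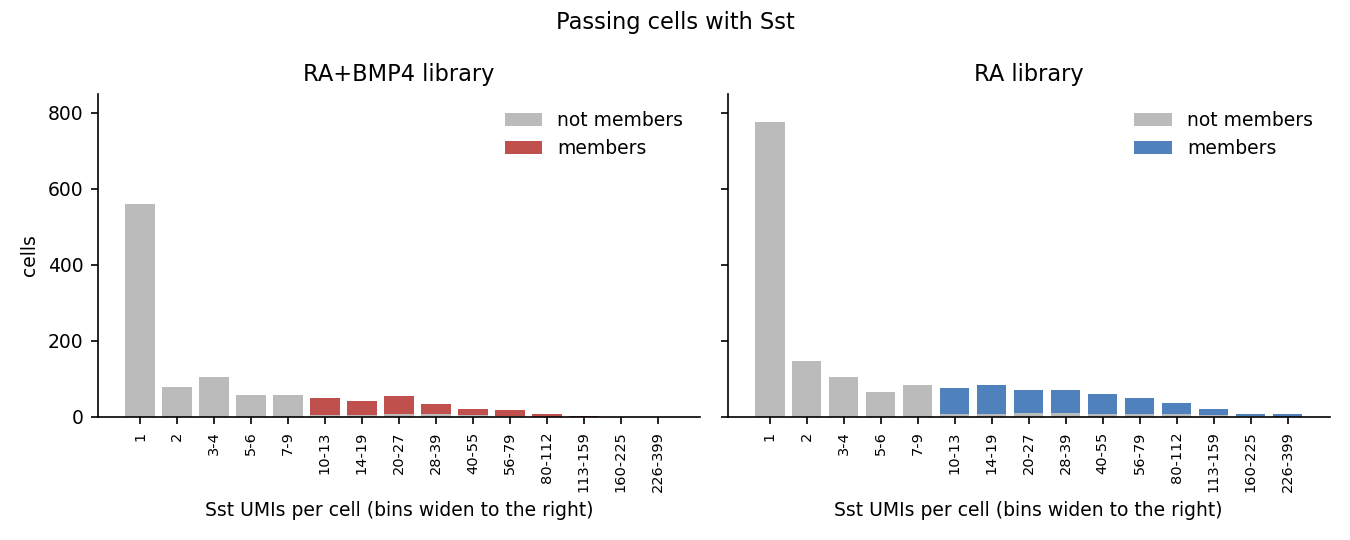
Number of passing cells (vertical axis) by Sst UMIs per cell (horizontal axis, bins widening to the right) in the RA+BMP4 library, left, and the RA library, right. Coloured bars are the 202 and 421 selected cells and grey bars the other cells; grey parts above 10 UMIs are cells left out for Dmrt3 or Barhl genes.

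The other parts of the rule removed different cells in each library. With at least 10 Sst UMIs there were 236 RA+BMP4 cells, of which 33 were left out for Barhl1 and Barhl2, dI1 factors, and 1 for Dmrt3, a dI6 factor. In the RA library there were 489, of which 1 was left out for Barhl genes and 67 for Dmrt3. Just inside the threshold, at 10 to 14 Sst UMIs, were 53 RA+BMP4 and 86 RA cells, and just outside, at 5 to 9, were 111 and 139. Pax2 was found in 35.8% of the inside cells and 30.6% of the outside cells in RA+BMP4, and in 59.3% and 56.1% in RA. Gad2 was found in 35.8% and 21.6% in RA+BMP4, and in 51.2% and 42.4% in RA. Foxd3 was found in 32.1% and 37.8% in RA+BMP4, and in 11.6% and 7.91% in RA. Tlx3 was found in 3.77% and 10.8% in RA+BMP4, and in 12.8% and 11.5% in RA, and Slc17a6 in 5.66% and 5.41%, and in 4.65% and 8.63%. The cells just below the threshold thus carried Pax2 and Foxd3 about as often as those just above it, Gad2 less often, and in RA+BMP4 Tlx3 more often.

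Depth and quality differed between the libraries. The median Sst-rich neuron had 10769.5 UMIs, 3811.5 genes and 4.47% mitochondrial UMIs in RA+BMP4, and 13190 UMIs, 4109 genes and 6.31% in RA. Scrublet called 10 (4.95%) and 18 (4.28%) of them doublets, and they were kept. The libraries shared 43 barcode sequences, 22 of them passing in both. No shared barcode was selected in both libraries, 1 selected RA+BMP4 cell had its barcode in the RA library, and 4 selected RA cells had theirs in the RA+BMP4 library.

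The name was checked against marker genes. The 8 pan-neuronal markers summed to 7048 CPM in RA+BMP4 and 6707 CPM in RA, against 6189 CPM and 6162 CPM in other neurons. Elavl3, which encodes an RNA-binding protein of neurons, was found in 98.1% of the RA+BMP4 and 98.8% of the RA cells nearest the threshold. Of the 5 markers given for the cells (Sst, Pnoc, Scg2, Syt4 and Gap43), only Sst was at least 2-fold higher than in other neurons in both libraries. The rule chose the cells on Sst, so Sst is no check of the name. Pnoc, which encodes the precursor of the peptide nociceptin, had 19.2 CPM in the RA+BMP4 cells against 14.7 CPM in other RA+BMP4 neurons. Most of those 19.2 CPM came from a single cell, described below, without which Pnoc was not higher there. In RA, Pnoc had 56.1 CPM in the selected cells against 18.9 CPM in other neurons. Syt4, a vesicle protein, had 61.8 CPM against 68.0 CPM in RA+BMP4, and 52.9 CPM against 91.0 CPM in RA. Gap43, a growth cone protein, had 414 CPM against 375 CPM, and 536 CPM against 694 CPM. By the same size rule Pnoc set the selected cells apart in the RA library, and Scg2, Syt4 and Gap43 in neither.

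Markers of 2 non-spinal cell types that make somatostatin were at or near 0. In the RA+BMP4 cells no UMI was found of Lhx6, Dlx5 or Nkx2-1, factors of forebrain Sst interneurons, or of Hhex, Pdx1 or Iapp, genes of pancreatic delta cells. In the RA cells Dlx1, Dlx5, Nkx2-1 and Pdx1 were at 0, and the delta cell list of 5 genes summed to 1.23 CPM in the RA+BMP4 cells and 2.06 CPM in the RA cells. Satb1, a chromatin factor that neurons of other regions also use, was the one forebrain marker above 5 CPM. Ptf1a, which starts the dorsal inhibitory programme in progenitors, was at 0 in RA+BMP4 and had 0.158 CPM in RA.

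Transmitter genes differed between the Sst-rich neurons and other neurons. Each cell was thinned to 5000 UMIs, which left out 3 of 202 RA+BMP4 and 5 of 421 RA cells, and searched for the GABA and glycine genes Gad1, Gad2, Slc32a1 and Slc6a5 and the vesicular glutamate transporters Slc17a6, Slc17a7 and Slc17a8. GABA or glycine genes alone were found in 78 of 199 RA+BMP4 cells (39.2% [32.4 to 46.4]) and in 265 of 416 RA cells (63.7% [58.9 to 68.3]). Glutamate genes alone were found in 11 RA+BMP4 cells (5.53% [2.79 to 9.67]) and 3 RA cells (0.721% [0.149 to 2.09]). Both kinds were found in 2 RA+BMP4 cells (1.01%) and 8 RA cells (1.92%), and neither kind in 108 (54.3% [47.1 to 61.3]) and 140 (33.7% [29.1 to 38.4]). Most Sst-rich neurons with any transmitter gene thus carried those of GABA and glycine, in both libraries. The share with neither kind depends on depth: without thinning it was 45.0% in RA+BMP4 and 18.1% in RA.

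In other neurons the balance was different. This comparison group still held Barhl and Dmrt3 cells, which the rule left out of the Sst-rich neurons. The 5 dI1 marker genes summed to 371 CPM in other neurons of RA+BMP4 and 34.4 CPM in RA. In the Sst-rich neurons they summed to 17.2 and 0.475 CPM. How much of the transmitter difference came from this choice was not tested. Any GABA or glycine gene was found in 40.2% of the Sst-rich neurons of RA+BMP4 against 8.10% of its other neurons, and in 65.6% against 21.6% in RA. Any glutamate gene was found in 6.53% against 35.6% in RA+BMP4, and in 2.64% against 23.7% in RA. In the mesenchymal cells, which give the level of free RNA, GABA or glycine genes were found in 0 of 118 RA+BMP4 cells, which allows up to 3.08%. In RA they were found in 3 of 142 mesenchymal cells (2.11%). Glutamate genes were found in 3 of those 118 cells (2.54%) and in 0 of those 142, which allows up to 2.56%. The interval of the glutamate share was 3.52 to 10.9 in the RA+BMP4 Sst-rich neurons and 0.527 to 7.25 in the RA+BMP4 mesenchymal cells. In RA it was 1.33 to 4.68 in the Sst-rich neurons, which includes the share that 0 of 142 allows, so expression above free RNA was not detectable at this depth.

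**Figure D2:**
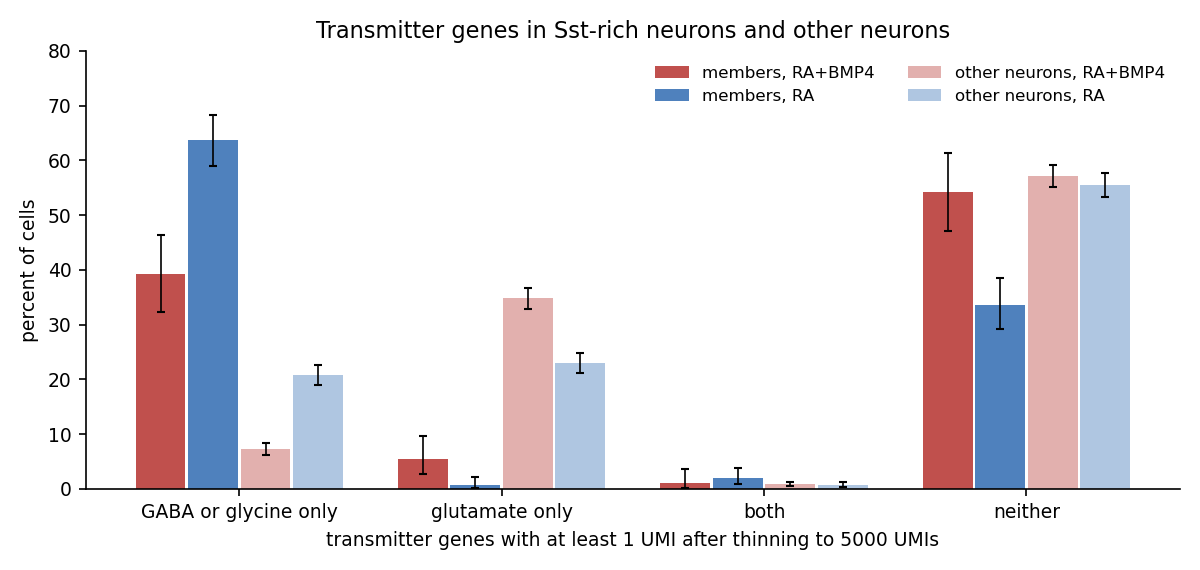
Percent of cells (vertical axis) with GABA or glycine genes only, glutamate genes only, both or neither after thinning to 5000 UMIs (horizontal axis), for Sst-rich neurons (full colours) and other neurons (pale colours) of the RA+BMP4 (red) and RA (blue) libraries. Lines are exact 95% intervals; the GABA or glycine bars of the Sst-rich neurons, 39.2% and 63.7%, stand above those of other neurons, 7.27% and 20.8%.

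Single genes gave the same picture. Slc32a1, at chr2:158610767-158615748, loads GABA and glycine into vesicles, and it had 73.2 CPM in the Sst-rich neurons against 14.2 CPM in other neurons of RA+BMP4 (log2 ratio 2.37 [2.10 to 2.62]). In RA it had 98.1 CPM against 30.2 CPM (1.70 [1.55 to 1.85]). Gad2, which makes GABA, had 59.7 CPM against 16.1 CPM in RA+BMP4 and 110.0 CPM against 42.5 CPM in RA. Slc17a6, at chr7:51622006-51671119, the vesicular glutamate transporter of most spinal excitatory neurons, was lower: 14.3 CPM against 123 CPM in RA+BMP4 (-3.10 [-3.63 to -2.62]). In RA it had 4.91 CPM against 66.4 CPM (-3.76 [-4.32 to -3.25]). Acetylcholine and monoamine genes were scarce, with Chat at 0 in the Sst-rich neurons of both libraries.

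Across all genes, differences from other neurons that held in both libraries were few. A gene was called apart when it had at least 20 CPM on one side and differed at least 2-fold the same way in both libraries. Of 6707 genes that could be called, 33 were higher in the Sst-rich neurons (0.492%) and 12 were lower (0.179%). The cells were chosen from the same measurements, so these counts are descriptions. Of 5 GABA and glycine genes, 3 could be called and all 3 were higher (Gad1, Gad2 and Slc32a1), with list median log2 ratios of 1.83 in RA+BMP4 and 1.39 in RA, beside -0.04 and -0.01 over all genes above 5 CPM. Of 13 genes listed as inhibitory dorsal horn factors, 7 could be called and 5 were higher, with medians of 1.48 and 1.41, and none was lower.

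Inhibitory transcription factors and the peptide gene Cartpt were among the higher genes. Pax2, at chr19:44756045-44837871, had 114 CPM against 23.3 CPM in other neurons of RA+BMP4 (2.29 [2.09 to 2.50]) and 312 CPM against 67.1 CPM in RA (2.22 [2.13 to 2.31]). Lhx1 had 528 CPM against 215 CPM in RA+BMP4 and 521 CPM against 181 CPM in RA. Its relative Lhx5 had log2 ratios of 2.04 and 1.92, and Tfap2b, which inhibitory dorsal horn neurons also use, 2.11 and 1.74. Pax8, a partner of Pax2, had ratios of 1.31 and 1.30. These are factors of the inhibitory programme, of which dI2 neurons also use Lhx1 and Lhx5. Genes listed for the ventral V1 class (En1, Foxd3 and Foxp2) summed to 119 CPM against 115 CPM in RA+BMP4, and 70.2 against 47.0 CPM in RA. None of them was called higher in both libraries. In Sst-rich neurons with Pax2, En1 had 27.3 CPM in RA+BMP4 and 34.6 CPM in RA, and Foxp2 8.69 and 33.6 CPM. In those without Pax2, En1 had 34.2 CPM in RA+BMP4 and 19.2 CPM in RA, and Foxp2 25.6 and 13.8 CPM. Cartpt, at chr13:99898489-99901091, encodes the CART peptides and had 432 CPM against 64.5 CPM in RA+BMP4 (2.74 [2.63 to 2.85]), and 817 CPM against 218 CPM in RA (1.91 [1.85 to 1.96]).

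The other named higher genes were of mixed kinds. Among them were the membrane proteins Lamp5 (2.07 in RA+BMP4 and 1.54 in RA) and Pmp22 (1.49 in RA+BMP4), the transporter Slco3a1 (2.18 and 1.80), the postsynaptic scaffold Dlgap1 (1.61 and 1.38) and the phosphatase inhibitor Ppp1r14a (2.09 and 1.43). The channel subunits Kcnq3 and Cacna2d3 were the 2 ion channel genes of 17 listed that were higher. Among the lower genes were Reln, which encodes the secreted protein reelin (-1.76 and -1.09), the adhesion gene Chl1 (-1.36 and -1.47), and the POU factors Pou3f1 (-1.22 and -1.17) and Pou3f2 (-1.21 and -1.06). Tmem163, Gpr22, Arfgef3 and Pdzrn4 were also lower, between -1.55 and -1.13. None of the 14 synaptic vesicle, 20 axon growth, 18 axon guidance and 11 peptide processing genes that could be called was apart in both libraries. Somatostatin receptors were near the limit of detection, with Sstr2, the highest, at 19.6 CPM in RA+BMP4 and 4.28 CPM in RA.

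**Figure D3:**
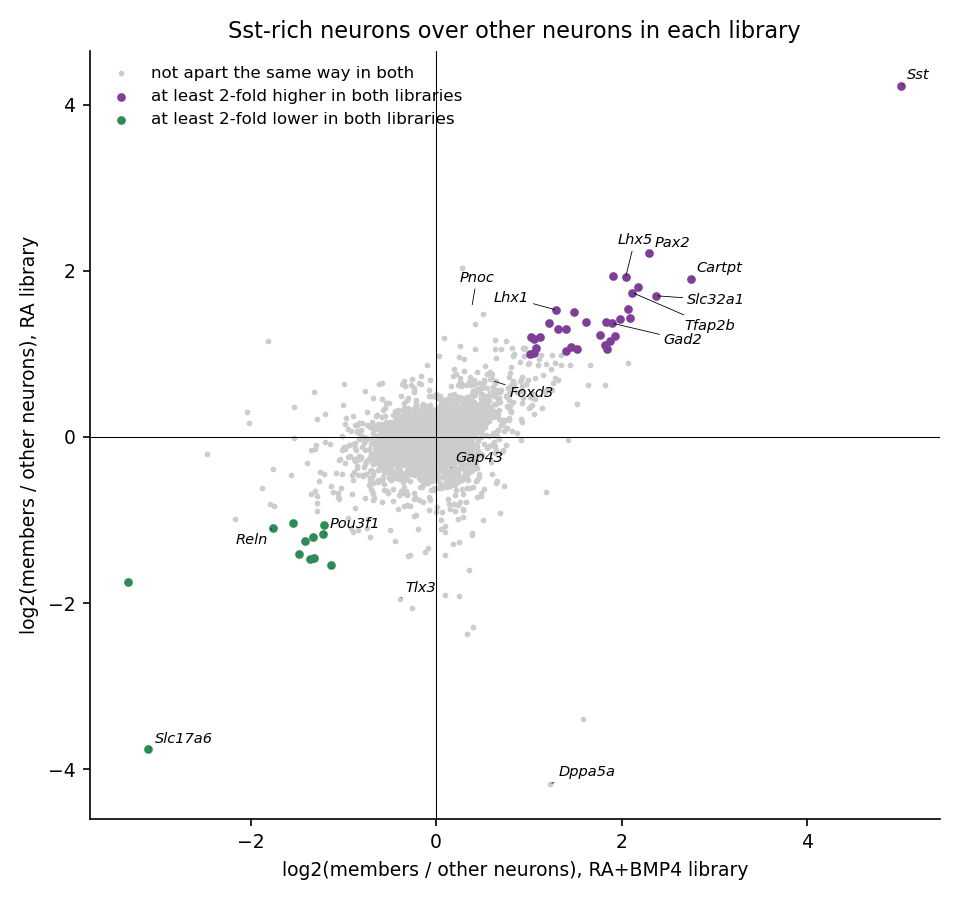
Log2 ratio of summed CPM of Sst-rich neurons over other neurons in the RA+BMP4 library (horizontal axis) and the RA library (vertical axis) for each gene that could be called. Sst (5.01 and 4.23, chosen by the rule), Pax2, Cartpt and Slc32a1 lie upper right, Slc17a6 (-3.10 and -3.76) lower left, and Dppa5a (1.23 and -4.18) goes opposite ways.

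The Sst-rich neurons were not of one kind. Split by UMIs of Pax2 and Foxd3, 72 of 202 RA+BMP4 cells (35.6%) and 293 of 421 RA cells (69.6%) had Pax2. A further 56 RA+BMP4 cells (27.7%) and 17 RA cells (4.04%) had Foxd3 and no Pax2. Tlx3 without Pax2 was found in 13 RA+BMP4 and 26 RA cells, with 2 and 3 of them also holding Foxd3. No UMI of Pax2, Tlx3 or Foxd3 was found in 63 (31.2%) and 88 (20.9%). Pax2 cells thus made up most of the RA group, while the RA+BMP4 group was divided into like shares of Pax2 cells, Foxd3 cells and cells with none of these factors. Subsets of 17 and 13 cells are thin, and a factor can be missed in a cell at these depths. Both Pax2 and Tlx3 were found in 3 RA+BMP4 cells and 24 RA cells, of which 2 and 5 were called doublets.

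The Pax2 subset carried genes of the inhibitory lists in both libraries, most of those given here at like levels. Lbx1 had 107 CPM in its RA+BMP4 cells and 117 CPM in its RA cells, Pax8 63.3 and 69.8 CPM, Gad2 128 and 147 CPM, Slc32a1 160 and 124 CPM, and Lhx1 642 and 634 CPM. After thinning, 52 of 70 RA+BMP4 cells with Pax2 (74.3% [62.4 to 84.0]) and 224 of 290 RA cells with Pax2 (77.2% [72.0 to 81.9]) had a GABA or glycine gene. Over all Sst-rich neurons the shares were 40.2% and 65.6%, while among cells with Pax2 the intervals of the libraries overlapped. Among cells without Pax2 it was 28 of 129 in RA+BMP4 (21.7% [14.9 to 29.8]) and 49 of 126 in RA (38.9% [30.3 to 48.0]). Slc6a5 had 29.8 CPM in its RA+BMP4 cells against 52.3 CPM in its RA cells, and Bhlhe22 had 13.7 CPM against 26.6 CPM, both under 2-fold apart. Cartpt was highest here of the subsets, at 793 CPM in RA+BMP4 and 1046 CPM in RA.

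The Foxd3 subset carried the dI2 genes and little transmitter message. Hmx2 had 158 CPM in its 56 RA+BMP4 cells and 186 CPM in its 17 RA cells, Hmx3 100 and 79.6 CPM, and Lhx1 646 and 491 CPM, while Lbx1 and Slc6a5 were at 0 in both. Pou4f1, a POU factor of excitatory and sensory neurons, had 245 and 342 CPM. The subset also held Neurog2, a proneural factor of newborn neurons, at 136 CPM in RA+BMP4 and 33.2 CPM in RA. No transmitter gene was found in 48 of 56 thinned RA+BMP4 cells (85.7% [73.8 to 93.6]) and 14 of 17 RA cells (82.4% [56.6 to 96.2]). Cartpt was low, at 10.3 CPM in RA+BMP4 and 23.2 CPM in RA.

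The small Tlx3 subset carried Pou4f1 at 219 CPM in its 13 RA+BMP4 cells and 359 CPM in its 26 RA cells, and Prrxl1, an excitatory dorsal horn and sensory factor, at 47.8 and 69.5 CPM. Isl1, a LIM factor of dI3, motor and sensory neurons, had 506 CPM in RA+BMP4 and 86.2 CPM in RA. Lmx1b, the partner of Tlx3 in excitatory neurons, was at 0 in RA+BMP4 and had 66.7 CPM in RA. The RA+BMP4 cells also had Prph, a gene of peripheral sensory neurons, at 31.9 CPM, against 0 in RA. After thinning, glutamate genes were found in 2 of 13 RA+BMP4 cells and 0 of 26 RA cells, which allows up to 13.2%.

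Cells with none of Pax2, Tlx3 and Foxd3 had the most Gap43, at 665 CPM in RA+BMP4 and 1152 CPM in RA, and the most Syt4, at 123 and 95.2 CPM. Scg2, a secretory granule protein, had 50.4 and 49.7 CPM, and Pou2f2 and Zfhx3, factors tied to birth order of spinal neurons, 497 and 554 CPM, and 1294 and 1669 CPM. Of the 4 subsets described here, Gap43, Syt4 and Scg2 were thus highest in this one in both libraries. Inhibitory genes were present at lower levels than in Pax2 cells, with Gad2 at 50.4 and 43.3 CPM and Slc32a1 at 55.8 and 59.0 CPM. Its RA+BMP4 cells held Hmx2 at 102 CPM against 10.7 CPM in RA, and its RA cells held more Lbx1, 91.7 CPM, against 32.7 CPM in RA+BMP4.

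**Figure D4:**
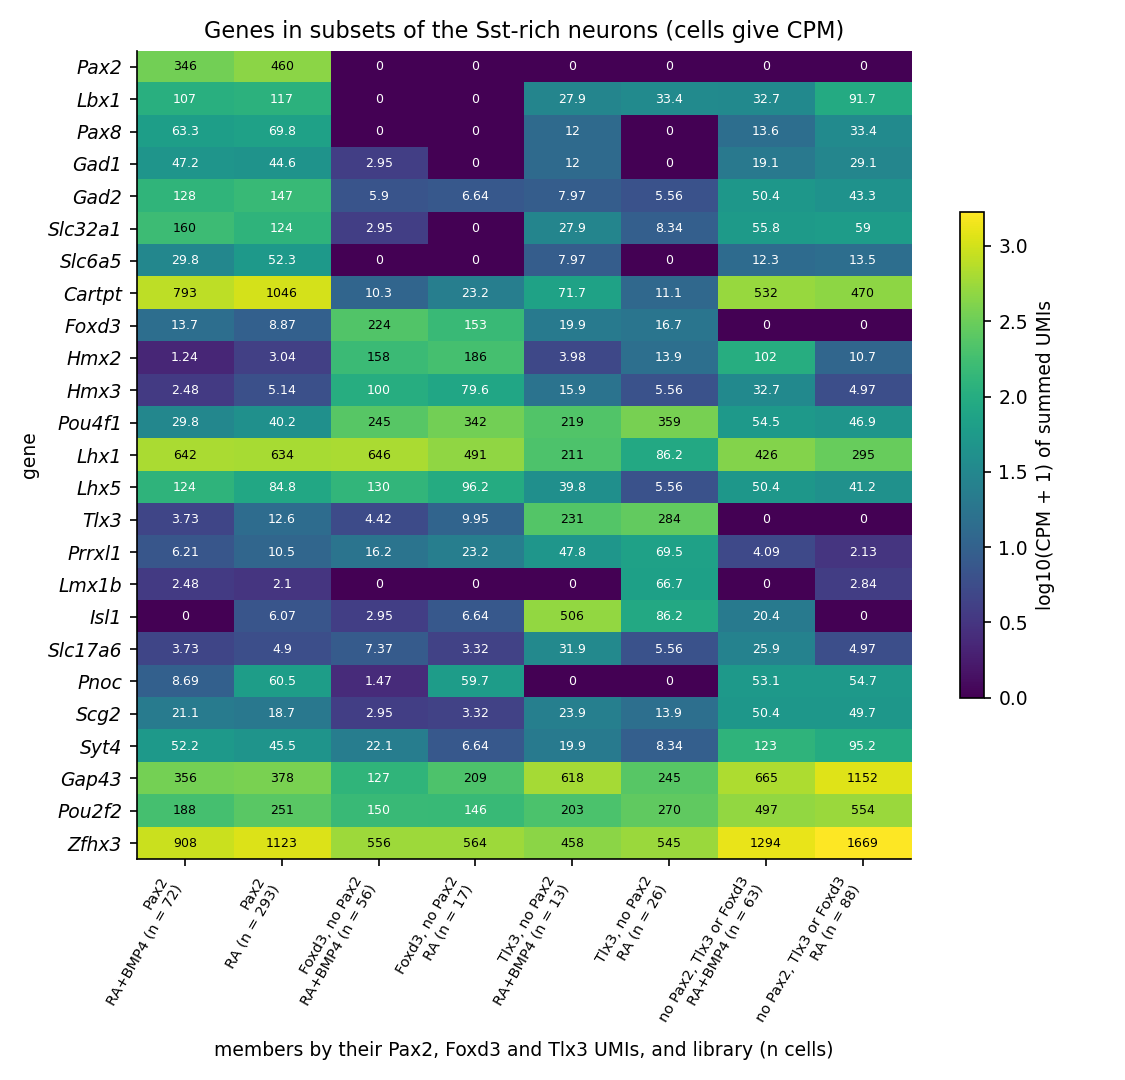
Genes (vertical axis) in Sst-rich neurons split by UMIs of Pax2, Foxd3 and Tlx3 (horizontal axis; RA+BMP4 left of RA in each pair; n is the number of cells). Colour is log10(CPM + 1) of summed UMIs and each number is the CPM; Gad2 reaches 128 and 147 CPM in Pax2 cells and 5.90 and 6.64 CPM in Foxd3 cells, where Hmx2 reaches 158 and 186 CPM.

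Levels also varied with the amount of Sst. In the RA library, 142 cells had 10 to 19 Sst UMIs, 155 had 20 to 49, and 124 had 50 or more. Over these bins Cartpt had 481, 684 and 1357 CPM, Pnoc 28.3, 43.3 and 103 CPM, and Samd5 29.2, 51.8 and 85.2 CPM. Wt1, a zinc finger factor of dI6 neurons, had 1.82, 9.93 and 37.9 CPM, and the cadherin Cdh8 5.02, 17.6 and 49.4 CPM. Gad2 changed little, with 101, 116 and 114 CPM. The RA cells richest in Sst thus held more Cartpt, Pnoc, Samd5, Wt1 and Cdh8 per UMI, a description of bins made on the gene that chose the cells. In the RA+BMP4 library, bins of 83, 85 and 34 cells had Cartpt at 446, 304 and 659 CPM, Pnoc at 4.04, 9.28 and 70.5 CPM, Foxd3 at 84.8, 76.3 and 10.4 CPM, and Wt1 at 1.01, 1.03 and 0 CPM. Most of that Pnoc came from 1 cell, which held 55.3% of the Pnoc UMIs of all RA+BMP4 members.

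Between the libraries, the Sst-rich neurons differed in the dI2 list, with 3 of 5 genes higher in RA+BMP4, and in the hypoxia and glycolysis list, with 6 of 10 higher. Of the Hox genes, 2 of 3 in groups 9 to 13 were higher. The same size rule could call 7051 genes, of which 110 were higher in RA+BMP4 (1.56%) and 33 were lower (0.468%), and the median log2 ratio of all was 0.02. Leaving out the cell with the most UMIs of each gene in each library, 93 of the 110 and 31 of the 33 were still called. In other neurons of the same libraries, 104 of 7103 genes were higher and 76 lower. Of the 143 genes called in the Sst-rich neurons, 43 were also called the same way in other neurons, 131 had the same sign there, and 2 were called the opposite way. With the stricter cell filter, 164 genes were higher and 110 lower, and the mitochondrial share differed between the libraries as given above, whose part was not tested.

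The lower genes included inhibitory and intermediate neural tube factors. Pax2 had 114 CPM in RA+BMP4 cells and 312 CPM in RA cells (-1.45 [-1.64 to -1.27]), Lbx1 47.9 and 102 CPM (-1.09 [-1.38 to -0.80]), and Slc6a5, the glycine transporter, 14.3 and 38.5 CPM (-1.43 [-1.98 to -0.91]). Of 8 genes listed as inhibitory dorsal horn factors that could be called, 4 were lower (Pax2, Pax8, Lbx1 and Bhlhe22) and none was higher. The list median was -0.40 beside 0.03 over all genes above 5 CPM. The list does not mean that each gene is found in inhibitory neurons alone. Lhx1 did not follow, with 528 and 521 CPM. Among cells with Pax2 the ratio of Lbx1 was -0.13 and that of Pax8 was -0.14, and among cells without Pax2 they were -1.88 and -1.55. Slc6a5 had a ratio of -0.81 [-1.48 to -0.20] and Bhlhe22 of -0.96 [-2.01 to -0.07] among cells with Pax2, below 0 but under 2-fold.

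The Iroquois factors Irx1, Irx2 and Irx5, which pattern the neural tube, were lower in RA+BMP4 whether or not cells had Pax2. Irx2, at chr13:72628820-72634198, had 12.3 CPM in RA+BMP4 and 75.3 CPM in RA (-2.62 [-3.20 to -2.08]), with UMIs in 15 of 202 and 160 of 421 cells. The ratio was -2.66 among cells with Pax2 and -2.92 among cells without it. Irx1 and Irx5 had ratios of -1.60 and -1.57 over all cells. In other neurons Irx2 was also called lower (-1.34), while Irx1 (-0.61) and Irx5 (-0.63) were not. Samd5 (-2.80), Cdh8 (-2.80), the neuregulin receptor Erbb4 (-1.62), the synaptic organiser Lrrtm3 (-1.84) and Nhs (-1.61) were lower as well. Hoxaas3, annotated as antisense to the HoxA cluster, was also lower (-1.77), and whether the authors counted by strand is not given in the sources used here.

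Pnoc, at chr14:65400673-65425472, had 19.2 CPM in RA+BMP4 and 56.1 CPM in RA (-1.54 [-2.02 to -1.10]), with UMIs in 12 of 202 and 88 of 421 cells. The 1 RA+BMP4 cell noted above made the difference smaller, and without the top cell of each library the ratio was -2.63. Of 3 listed peptide genes that could be called, besides Sst, Pnoc was lower, Npy was higher (48.3 and 11.1 CPM, 2.12 [1.68 to 2.57]), and Cartpt had 432 and 817 CPM, under 2-fold apart. Npy encodes neuropeptide Y, and its UMIs lay in 17 of 202 RA+BMP4 cells and 20 of 421 RA cells. Peptide processing genes differed little, with 1 of 11 lower, Resp18 (-1.09).

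The higher genes included dI2 and newborn neuron genes. Foxd3, at chr4:99656299-99658622, had 66.7 CPM in RA+BMP4 and 13.3 CPM in RA (2.32 [1.94 to 2.72]), with UMIs in 59 of 202 and 29 of 421 cells. Hmx2 had ratios of 2.50 [2.12 to 2.89] and Hmx3 of 2.18 [1.69 to 2.69]. Isl1 had 58.9 and 9.35 CPM (2.66 [2.21 to 3.12]), in only 11 of 202 and 13 of 421 cells. Foxd3, Hmx2 and Isl1 were also called higher in other RA+BMP4 neurons, with ratios of 2.39, 1.88 and 2.48. Cells with Pax2 held few UMIs of these genes, 11 in RA+BMP4 and 38 in RA for Foxd3, 1 and 13 for Hmx2, 2 and 22 for Hmx3, and 0 and 26 for Isl1.

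Neurog2 had the largest ratio of the named genes that were called, with 61.0 and 7.13 CPM (3.10 [2.61 to 3.61]). Its UMIs lay in 36 of 202 RA+BMP4 and 24 of 421 RA cells. The 1 dI1 marker gene above 5 CPM had a ratio of 4.69 but too few CPM to be called. The newborn neuron list of 6 genes summed to 193 CPM in RA+BMP4 and 58.0 CPM in RA, and 3 of its genes, Neurog2, Neurod4 and Neurod1, were called higher, although 1 cell held 48.2% of the Neurod1 UMIs in RA+BMP4. Olig3, a dorsal progenitor factor (2.75), Bhlhe23 (2.39) and Arl4d (2.42) were higher too. Rspo3 (2.90), a Wnt agonist of the roof plate, and Msx1 (1.69), a BMP target there, were the called members of a roof plate list that summed to 116 CPM in RA+BMP4 and 28.2 CPM in RA, with its defining gene Gdf7 at 0 in RA+BMP4. Whether less mature or roof plate cells among the Sst-rich neurons bear on these genes was not tested.

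Genes shared with other RA+BMP4 neurons made up another group. Hoxc9 had 305 and 96.2 CPM (1.67 [1.51 to 1.82]) and Hoxa9 94.9 and 36.5 CPM (1.38 [1.11 to 1.65]), and both were higher in other neurons as well (1.97 and 1.56). None of 9 Hox genes of groups 1 to 5 and none of 8 of groups 6 to 8 was called. Crabp1, which binds retinoic acid in the cell, had 1712 and 600 CPM (1.51 [1.45 to 1.58]), against 2665 and 718 CPM in other neurons. The imprinted RNA H19 (2.46, with 43.4% of RA+BMP4 UMIs and 59.7% of RA UMIs in 1 cell each) and the lactate transporter Slc16a3 (2.58) were also called in both. Hoxc9, Hoxa9, Crabp1, H19 and Slc16a3 were each called higher in cells with Pax2 and in cells without it.

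Hypoxia and glycolysis genes were higher in the RA+BMP4 cells, with 6 of 10 called (Ldha, Tpi1, Bnip3, Pdk1, Slc2a1 and Ankrd37), none lower, and a median log2 ratio of 1.14. Ldha, which makes lactate, had 533 and 188 CPM, with a log2 interval of 1.39 to 1.62. In other neurons Ldha had 471 and 277 CPM and only Pdk1 of the 6 was called. That difference between populations was not tested. Slc2a1 rested partly on 1 cell, and its ratio without the top cells was 0.93. Neither 7 activity-induced genes nor 5 stress genes that could be called held any call.

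Dppa5a and Upp1, a pluripotency gene and a nucleoside enzyme, were called higher (2.55 and 2.39) on the UMIs of 1 RA+BMP4 cell, which held 93.9% and 89.0% of them. With called doublets removed they were lower, at -1.44 and -0.96. Col3a1, a fibrillar collagen, was lower (-1.22), and 1 cell held 35.1% of its RA+BMP4 UMIs and 1 cell 24.4% of its RA UMIs. The axon growth list had 1 call among 20 genes, Nefl (891 and 423 CPM, 1.07), which had 145 and 274 CPM in cells with Pax2 and 1258 and 738 CPM in cells without it. No call was made among 14 synaptic vesicle genes and 19 axon guidance genes that could be called.

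**Figure D5:**
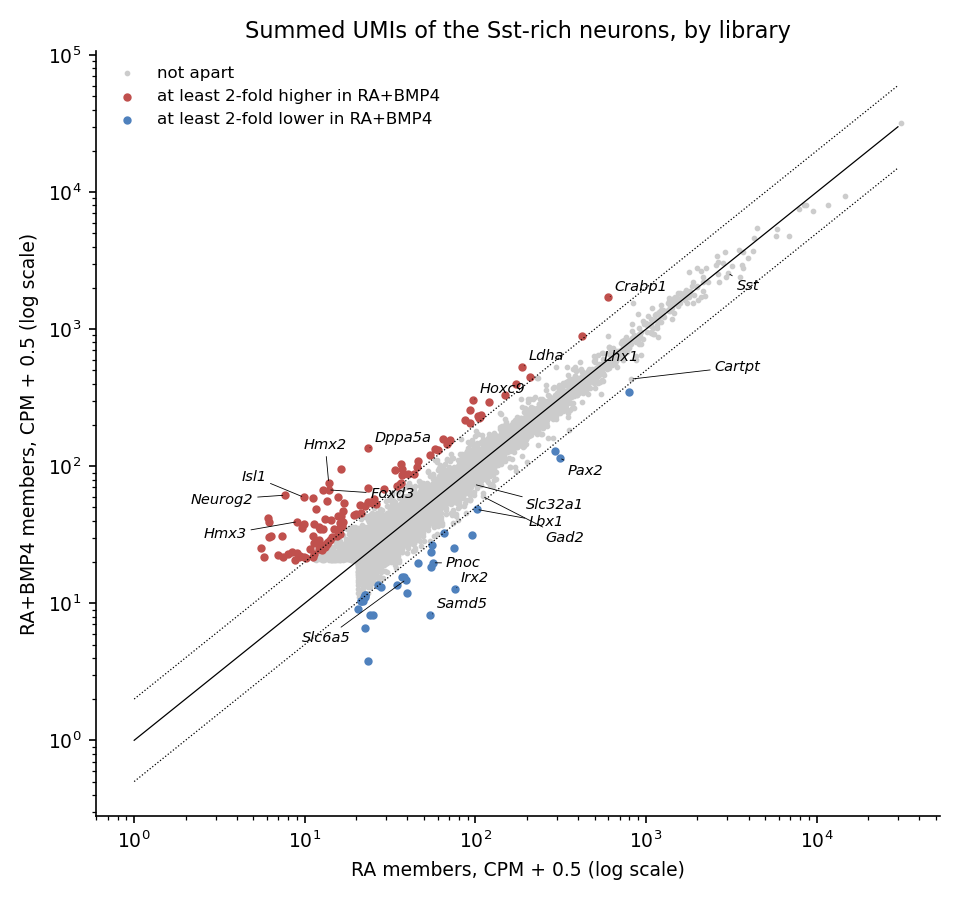
Summed CPM + 0.5 of each gene in Sst-rich neurons of the RA+BMP4 library (vertical axis, log scale) and of the RA library (horizontal axis, log scale); dotted lines mark 2-fold. The 110 red genes include Foxd3, Hmx2 and Neurog2 and the 33 blue genes include Pax2, Irx2 and Samd5, while Sst, Lhx1, Gad2, Slc32a1 and Cartpt lie within 2-fold.

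Like populations were set beside the Sst-rich neurons. Pax2 cells with fewer than 10 Sst UMIs numbered 174 in RA+BMP4 and 438 in RA, Tlx3 cells 492 and 868, and Dmrt3 cells 3 and 68. Each needed at least 2 UMIs of its factor, and Pax2 and Tlx3 cells fewer than 2 of the other factor. The subsets of Sst-rich neurons above were split on any UMI of a factor, so their shares are not at a like cutoff. Any GABA or glycine gene was found in 80.8% and 70.6% of Pax2 cells, and in 39.7% of RA Dmrt3 cells, which had Sst at 1431 CPM. Cartpt was at 432 CPM in RA+BMP4 and 817 CPM in RA among Sst-rich neurons, against 312 and 615 CPM in Pax2 cells, and Gap43 at 414 and 536 CPM against 185 and 176 CPM. Gbx1, an inhibitory dorsal horn factor, had 2.86 and 6.18 CPM against 26.9 and 6.50 CPM. Over all Sst-rich neurons, Gap43 was thus higher than in Pax2 cells in both libraries. Slc6a5 was lower, at 14.3 and 38.5 CPM against 77.2 and 46.8 CPM, but the Sst-rich neurons include cells without Pax2. In those, Slc6a5 had 6.71 CPM in RA+BMP4 and 9.37 CPM in RA. In Sst-rich neurons with Pax2, Gap43 was still higher, at 356 and 378 CPM. Their Slc6a5, given above, was below that of Pax2 cells in RA+BMP4 and above it in RA. Tlx3 cells had Lhx1 at 19.7 CPM in RA+BMP4 and about 20 CPM in RA, any GABA or glycine gene in 0.416% and 2.44%, and any glutamate gene in 5.82% and 22.4%.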

How the data were processed

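Single-cell RNA was measured with the 10x Genomics 3′ v3 chemistry in 1 library per condition, per the labels' protocols. Each deposited file holds whole UMI counts by gene and barcode, with no scaling. Per the submitters' processing notes the tools were CASAVA and Cell Ranger 3.0.2 and the build was GRCm38. The annotation release and cell calling settings were not given in the sources used here. UMIs collapse copies made by PCR, and intervals cover counting error only.

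Barcodes were kept from 1000 genes upwards and up to 10% mitochondrial UMIs. Within a library the UMIs of a population were added up and expressed as CPM over all 31053 genes. With 1 library per condition no test was possible, so genes were called apart at 20 CPM on one side and a 2-fold ratio, with fewer than 3 counts set to 3 and exact conditional binomial intervals for ratios. Shares have exact Clopper-Pearson intervals of 95%. Where a share of 0 is given with what it allows, that is the upper end of its interval. Transmitter genes were searched after each cell was thinned at random to 5000 UMIs. Lists gave medians over genes with at least 5 CPM. Doublets were called per library by Scrublet in scanpy 1.11.5 with an expected rate of 8%, and were kept. Gene positions are from GENCODE vM21 on GRCm38, and promoters from RefSeq on GRCm38.p6. The size rule and intervals were tested on simulated Poisson counts drawn from the summed UMIs, with changes larger than 2-fold. Those counts hold no variation between cells, so the test does not cover genes whose UMIs lie in few cells. Thinning was checked on the RA Sst-rich neurons, only for reaching its target depth.

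The selected cells, the 24 gene lists and the 27 marker lists were chosen with earlier results of these data known. Genes named are list and marker members, the 12 highest and 12 lowest ratios between libraries, and the 15 highest and 10 lowest against other neurons, without predicted genes and mitochondrial genes. Of 326 listed genes, 325 had a unique symbol. Some named genes are not reported here.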

Additional observations from a re-analysis of the deposited data

Results flagged for a closer look

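In 3 genes the ratio of Sst-rich neurons over other neurons was called in opposite directions in the 2 libraries; with 1 library per condition the difference was not tested. Nr4a2, an orphan nuclear receptor, had log2 ratios of -1.81 in RA+BMP4 (13.5 CPM against 47.3 CPM) and 1.15 in RA (24.1 CPM against 10.8 CPM). Within the Sst-rich neurons Nr4a2 lay with Pax2, at 32.3 CPM in RA+BMP4 and 32.5 CPM in RA, against 1.47 CPM and 6.64 CPM in Foxd3 cells. Dppa5a had ratios of 1.23 in RA+BMP4 and -4.18 in RA, and Upp1 had 1.58 and -3.39. In RA+BMP4, 1 cell held 93.9% of the Dppa5a UMIs and 89.0% of the Upp1 UMIs. Dppa5a can share reads with near-identical copies.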

How the results depend on the processing

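No paired analysis was possible because each condition had 1 library. The ratio of shares stayed below 1 under every alternative run on it. The share of Sst-rich neurons in RA+BMP4 and RA was 3.62% and 9.27% at 5 Sst UMIs, 1.38% and 4.62% at 20, and 1.58% and 4.50% with no filter on barcodes. In RA it was 6.11% with Sst scaled to 10000 UMIs and 5.38% with the stricter filter on genes and mitochondrial UMIs, which gave a ratio of 0.416. Between libraries, 51 genes were lower at 20 Sst UMIs and 110 with the stricter filter; a minimum of 50 CPM gave 52 higher and 13 lower, and no minimum 1060 and 304. Against other neurons, 19 genes were lower at 20 Sst UMIs, 20 with scaled Sst and 22 with the stricter filter; a minimum of 50 CPM gave 20 higher, and no minimum 134 higher and 78 lower. With the stricter filter, GABA or glycine only was 68.8% and glutamate only 0 in RA. Without thinning, neither was 45.0% in RA+BMP4 and 18.1% in RA, and in RA GABA or glycine only was 75.8% and both 4.51%. At 3000 UMIs, GABA or glycine only was 29.7% in RA+BMP4 and 49.2% in RA, neither 66.8% and 49.4%, and both 0.713% in RA. With 2 UMIs needed, GABA or glycine only was 25.6% and 40.9%, glutamate only 1.51% and 0, neither 72.9% and 59.1%, and both 0 in each. Alternatives on cells with and without Pax2, and the mean over all possible thinnings, were added after seeing the data. Cells with Pax2 gave 171 genes higher and 82 lower, GABA or glycine only in 71.4% and 74.8%, neither in 24.3% and 22.4%, and glutamate only in 1.43% of RA+BMP4 cells. Cells without Pax2 gave 73 genes lower, GABA or glycine only in 21.7% and 38.1%, neither in 70.5% and 59.5%, and both in 0 and 0.794%. Ratios between libraries, with counts under 3 set to 3, turned round with called doublets removed for Dppa5a (-1.44) and Upp1 (-0.96), among cells with Pax2 for Isl1 (-0.70) and Hmx3 (-0.46), and among cells without Pax2 for Dppa5a (-0.94), Upp1 (-0.83) and, by construction, Pax2 (0.31). The cause of these changes was not tested. Of the other values, 84 summary results and 954 single-gene ratios were scored as kept, and 196 ratios as moved. The moved ratios were unevenly spread over the alternatives. The stricter filter on genes and mitochondrial UMIs moved 62 ratios and kept 57. Every cell weighted equally moved 32 and kept 87. A count was scored as kept within 1.5 times its main value, and a share or ratio inside its main interval. Turning was scored only for called genes. The minimum CPM does not enter a ratio, so the 119 ratios under each of its 2 alternatives could not move. Every cell weighted equally, median-of-ratios scaling and leaving Sst out of the totals moved no count by over 1.5 times.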
